A study of Mus musculus with 2 samples.

Results

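Granule-rich neutrophils were a small group of GR1+ cells rich in the transcripts of secondary granule proteins. Neutrophils were taken as cells in which S100a8 and S100a9 made up at least 1.5% of the unique molecular identifiers (UMIs) and C1qa, C1qb, C1qc and Apoe less than 0.5%, and granule-rich neutrophils as those in which Camp, Ngp and Ltf together reached 1%. This left 64 granule-rich cells among 2298 neutrophils, 5187 retained cells and 7951 barcodes. The 3 genes of the rule chose the cells, so that their levels are a description, and every other gene was read in the same cells and is described without a test. The label of immature neutrophils was set against the marker genes that had no part in the rule, Ifitm6, Ly6g, Cd177, Lcn2, Serpinb1a and Chil3, all of which were at least 2-fold higher than in the other neutrophils of both libraries, although Serpinb1a and Chil3 passed the filter on low levels only through the granule-rich cells and so had to differ.

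The study asked which myeloid cells differ at baseline between tumors that respond to anti-PD1 and tumors that do not. 4T1 is a mammary carcinoma line of BALB/c mice: 4T1P is the parental, non-responding line, and 4T1M was made from it with the mutagen MNNG, is multiclonal and responds to anti-PD1. According to the deposited records mice were 6 to 8 weeks old and 5 were pooled per tumor type, although the study's methods give older mice and a figure legend another number of them, and per the methods the tumors were taken before treatment. GR1+ cells, which carry Ly6G or Ly6C on their surface, were collected with magnetic beads and run as 1 droplet library per tumor type. The 4T1P library held 2947 barcodes with 21855657 UMIs and the 4T1M library 5004 barcodes with 24303957 UMIs. With 1 library per tumor type there is no spread between animals, no p-value was computed, and the intervals given (95%) count only the sampling of UMIs or cells. Of 5 barcode sequences found in both libraries, 0 belonged to granule-rich cells.

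Neutrophils make their granules in order while they mature in the bone marrow. Primary granules with myeloperoxidase and elastase are made by promyelocytes, secondary granules with lactoferrin and cathelicidin by myelocytes and metamyelocytes, and tertiary granules with gelatinase later, while secretory vesicles come last. Transcripts of granule proteins are switched off in turn, so that a circulating neutrophil carries the proteins but little of their RNA, and C/EBPε, encoded by Cebpe, is the transcription factor known for driving the secondary granule genes.

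The genes of the rule encode cathelicidin (Camp), neutrophilic granule protein (Ngp) and lactoferrin (Ltf). All of them lie on chromosome 9 of GRCm38 within 1.195 Mb, Camp at chr9:109847379-109849617 on the minus strand, Ngp at chr9:110419747-110423012 and Ltf at chr9:111019271-111042767, both on the plus strand. Lcn2, the gene of lipocalin-2, another secondary granule protein, lies on chromosome 2. The 250 bases before the RefSeq start of these 4 genes (GRCm38.p6) are shown because the genes are high in the same cells. Capitals mark the letters TTGCNNAA or their reverse complement TTNNGCAA, a form of the site that C/EBP factors are known to bind; both strands were searched, and a place that matches both forms was counted once. The windows of Camp (chr9:109849457-109849706, minus strand), Ngp (chr9:110419558-110419807), Ltf (chr9:111019042-111019291) and Lcn2 (chr2:32387740-32387989, minus strand) read 5′ to 3′:
Camp: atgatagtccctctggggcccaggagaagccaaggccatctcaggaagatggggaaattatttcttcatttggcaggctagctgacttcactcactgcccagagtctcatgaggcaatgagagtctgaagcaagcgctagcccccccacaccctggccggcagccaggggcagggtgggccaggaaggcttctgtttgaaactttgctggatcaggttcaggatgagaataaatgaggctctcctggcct
Ngp: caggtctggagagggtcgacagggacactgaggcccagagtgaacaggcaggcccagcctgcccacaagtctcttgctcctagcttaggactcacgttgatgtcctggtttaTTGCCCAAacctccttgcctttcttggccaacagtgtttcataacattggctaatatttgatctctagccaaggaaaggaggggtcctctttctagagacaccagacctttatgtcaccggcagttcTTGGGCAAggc
Ltf: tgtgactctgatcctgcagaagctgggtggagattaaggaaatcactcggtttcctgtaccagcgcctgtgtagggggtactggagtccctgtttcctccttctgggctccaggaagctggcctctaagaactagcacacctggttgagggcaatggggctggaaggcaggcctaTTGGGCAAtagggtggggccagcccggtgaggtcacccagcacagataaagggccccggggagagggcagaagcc
Lcn2: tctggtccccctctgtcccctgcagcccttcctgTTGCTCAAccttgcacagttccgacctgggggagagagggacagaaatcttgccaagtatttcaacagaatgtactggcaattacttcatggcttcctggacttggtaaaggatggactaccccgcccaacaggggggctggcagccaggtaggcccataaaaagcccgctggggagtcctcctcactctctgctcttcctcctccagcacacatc
Ngp held 2 matches, Ltf 1, Lcn2 1 and Camp 0. Such letters stood in 9.55% of all 27025 promoter windows of this length, in 8.84% of those of the genes tested here, in 18 of 143 windows of the genes 2-fold or more higher in both libraries (12.6%) and in 5 of 15 windows of the secondary granule list (Lcn2, Ltf, Mmp8, Ngp and Stfa1). A match is a run of letters and not a site shown to be bound, no match says only that these letters are not in the window, and the GENCODE starts of Camp, Ngp and Ltf lie upstream of the RefSeq starts, inside these windows.

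Granule-rich cells were rare in both libraries, with shares whose intervals overlapped. In 4T1P they were 18 of 612 neutrophils (2.94%, exact binomial interval 1.75% to 4.61%), and in 4T1M 46 of 1686 (2.73%, 2.004% to 3.62%). They carried far more of the neutrophil RNA than of the cells, with 12.6% of the neutrophil UMIs in 4T1P and 10.1% in 4T1M. A granule-rich cell held a median of 16632 UMIs in 4T1P and 12577 in 4T1M, against 2996 and 2920 in the other neutrophils. It also held more detected genes, with medians of 2287 and 2038 against 946.5 and 915. Once each cell was thinned to 1000 UMIs this order turned, and granule-rich cells showed medians of 363 and 381 genes against 444 and 450.5. The 10 most abundant genes took 49.5% and 44.6% of the UMIs of granule-rich cells, and 30.1% and 29.4% of those of other neutrophils.

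The score that chose the cells was spread widely among them. In 4T1P the summed share of Camp, Ngp and Ltf ran from 2.20% over a median of 6.30% to 11.4% of the UMIs of a cell, and in 4T1M from 1.10% over 3.75% to 10.9%. Of the granule-rich cells, 0 of 18 in 4T1P and 12 of 46 in 4T1M lay between 1% and 2%, so that the low end of the range was filled in 4T1M alone. Close to the limit, the lowest members stood at 2.20%, 3.42% and 3.86% in 4T1P and at 1.10%, 1.17% and 1.19% in 4T1M, and the highest cells outside it at 0.918%, 0.807% and 0.657% and at 0.783%, 0.761% and 0.615%. Most other neutrophils held none of these transcripts (82.3% and 82.1%). All 3 genes had a UMI in 18 of 18 and 45 of 46 granule-rich cells, and Ngp was the most abundant of them in 13 and 39 cells, Camp in 5 and 7 and Ltf in 0. In 1 of the 5 cells of 4T1P counted for Camp, Ngp was level with it.

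**Figure D1:**
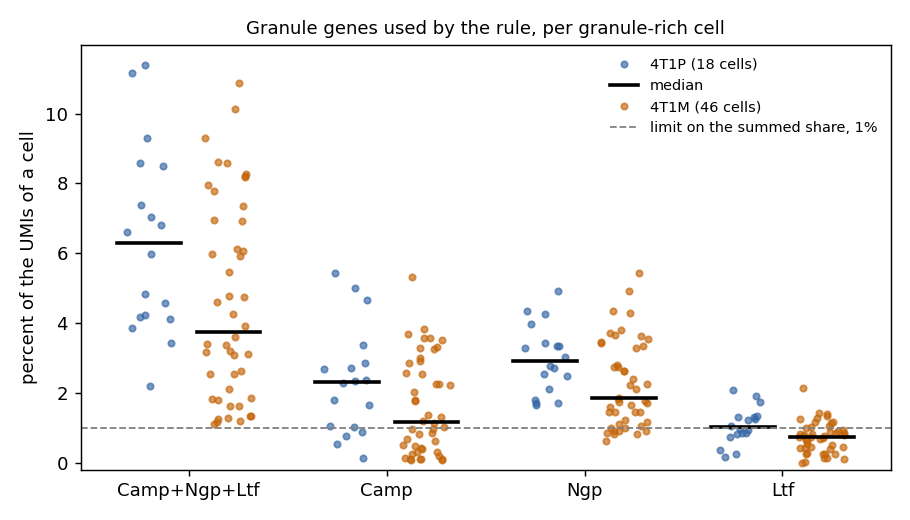
Percent of the UMIs of a cell taken by Camp, Ngp and Ltf together and by each, 1 point per granule-rich cell, blue for 4T1P (18 cells) and orange for 4T1M (46 cells), with the median as a black bar and the 1% limit on the summed share dashed. Both libraries span a broad range, with medians of the summed share at 6.30% in 4T1P and 3.75% in 4T1M, and the cells just above the limit are from 4T1M.

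Levels are given as CPM, the UMIs of a gene in all cells of a class and library, per 1000000 UMIs of those cells, and differences as log2 ratios of CPM with 0.5 UMIs added. As the rule fixed, granule-rich cells held nearly all UMIs of Camp, Ngp and Ltf in the neutrophils. Camp was at 28050 CPM in 4T1P and 18702 CPM in 4T1M, against 40.2 and 23.0 CPM in the other neutrophils, and 99.0% and 98.9% of all Camp UMIs of neutrophils came from granule-rich cells. Ngp was at 31203 and 24299 CPM against 349 and 148 CPM, and Ltf, which encodes an iron-binding protein, at 11567 and 7645 CPM against 64.9 and 35.3 CPM. Among single cells, Camp ranged from 1395 CPM over a median of 23093 to 54347 in 4T1P and from 703 over 11632 to 53144 in 4T1M, so that the libraries overlapped over most of the range.

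Outside granule-rich cells these transcripts were seldom detected. After thinning to 1000 UMIs, Camp was detected in 17 of 18 granule-rich cells in 4T1P (94.4%) and in 45 of 46 in 4T1M (97.8%), in 1.85% and 1.28% of other neutrophils, and in 0 of 210 and 1 of 297 cells with 2% or more of their UMIs in the C1q genes and Apoe, which are macrophage genes. At this depth a count of 0 of 210 allows a detected share of up to 1.43%, taken as 3 cells of 210. The exact binomial interval ends at 1.74%. Those C1q-rich cells held a median of 8462 and 10482 UMIs before thinning. Ly6g, the gene of the Ly6G antigen recognised by the GR1 antibody, was detected in 61.1% and 73.9% of granule-rich cells, 6.73% and 5.99% of other neutrophils and 0 and 0.337% of C1q-rich cells at the same depth.

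The other markers that had no part in the choice of cells were also higher. Lcn2, whose protein binds bacterial siderophores, was at 18706 and 13663 CPM against 2295 and 1793 CPM, log2 ratios of 3.03 and 2.93. For Ifitm6, a gene of the interferon-induced transmembrane family, the levels were 6255 and 5353 CPM against 853 and 475 CPM. Ly6g was at 1383 and 1282 CPM against 153 and 112 CPM, and Cd177, a surface glycoprotein stored in secondary granules, at 909 and 854 CPM against 88.7 and 74.2 CPM. Granule-rich cells held between 46.1% and 59.7% of all neutrophil UMIs of these 4 markers, so that much of this RNA lay in other neutrophils. Serpinb1a, an inhibitor of neutrophil serine proteases, and Chil3, a chitinase-like protein, were more confined, with granule-rich cells holding 78.0% and 85.8% of the Serpinb1a and 96.8% and 86.0% of the Chil3 UMIs of neutrophils. Chil3 was uneven among the granule-rich cells, with a UMI in 15 of 18 and 29 of 46 of them and up to 4596 and 3357 CPM in a cell.

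**Figure D2:**
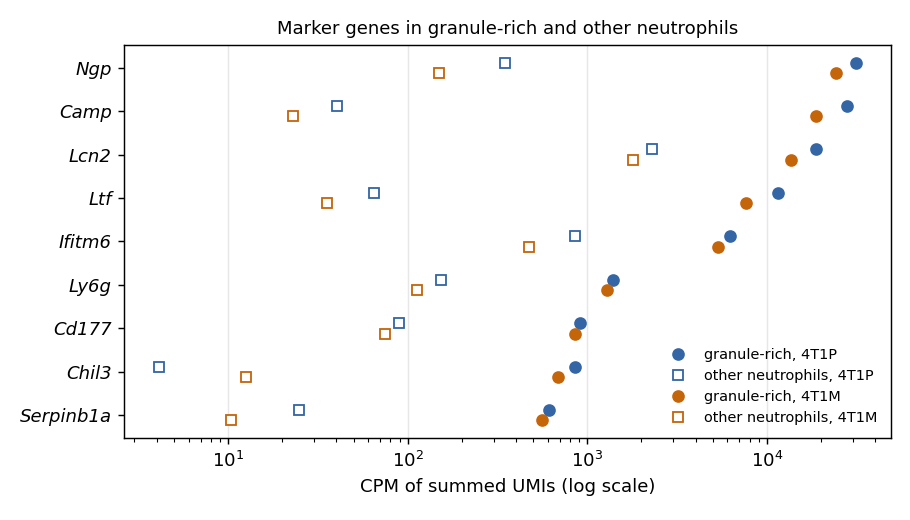
Level of the 9 marker genes as CPM of summed UMIs on a log scale, filled circles for granule-rich and open squares for other neutrophils, blue for 4T1P and orange for 4T1M. Each marker is higher in granule-rich cells in both libraries, from the 7.34- to 11.3-fold differences of Lcn2 and Ifitm6 to the 693- and 811-fold differences of Camp.

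Over all genes with a mean of at least 50 CPM over the 4 sums of cells, 174 of 1962 (8.87%) were 2-fold or more higher in granule-rich cells in both libraries and 491 (25%) were 2-fold or more lower. The median log2 ratio over these genes was -0.55 in 4T1P and -0.41 in 4T1M and, with edgeR's TMM scaling in place of total UMIs, -0.38 and -0.30. A log2 ratio below 0 in both libraries was found for 61.6% of these genes and one of opposite sign for 9.94%. With no filter beyond 1 UMI, 3983 genes counted as higher and 1462 as lower, with medians of 0.47 and 0.35. There the 0.5 UMIs added to sums of unequal size set the ratio of genes almost without UMIs. Cpa3, with 1 UMI in other neutrophils of 4T1M and 0 elsewhere, stood at 2.79 and 1.57. The unfiltered counts thus do not show a turn in the balance of levels. Against other neutrophils of at least 5000 UMIs, 114 genes were 2-fold or more higher in both libraries and 398 lower. In the secondary granule list, 14 of 16 genes passed the filter, 11 of them were higher and 0 lower by this measure, and the median log2 ratio was 3.09 in 4T1P and 2.75 in 4T1M. Without the genes of the rule, 8 of 11 were higher and 0 lower, and the medians were 2.60 and 2.49. Of the 8, Chil3 and Ceacam10 were below 50 CPM in other neutrophils of both libraries. Both passed the filter only through the granule-rich cells and so had to differ. Granule-rich cells held 45.3% and 36.4% of the UMIs of the list without the rule genes in neutrophils. Beside the markers, higher genes were Pglyrp1, a bactericidal peptidoglycan recognition protein (2.60 and 2.72), Hp, haptoglobin (1.65 and 1.47), Ceacam10, a gene of the carcinoembryonic antigen family (3.15 and 2.49), and the membrane subunits of the NADPH oxidase, Cybb (3.24 and 2.78) and Cyba (1.64 and 1.21). Mmp8, the neutrophil collagenase, was closer between the classes at 0.44 and 0.96, and so was Chil1, a chitinase-like protein, at -0.24 and 0.11. Olfm4, which marks a subset of neutrophils, was split between the libraries, at 12.7 CPM in granule-rich against 69.0 CPM in other neutrophils in 4T1P and at 179 against 112 CPM in 4T1M. It was detected in 1 and 7 granule-rich cells.

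Of the primary granule genes, Mpo, Ctsg and Elane were nearly absent and Lyz2 was abundant. Mpo, the gene of myeloperoxidase, and Ctsg, cathepsin G, had 0 UMIs in granule-rich cells but for 1 Mpo UMI in 4T1M, and Elane, neutrophil elastase, was found in 1 cell of each library, with 8 UMIs and 1. Prtn3, proteinase 3, was at 72.8 and 34.6 CPM in 7 and 12 granule-rich cells, against 6.40 and 7.61 CPM in other neutrophils. Ms4a3, a gene of granulocyte progenitors, was at 50.7 and 19.6 CPM in 7 and 5 cells, against 0.457 and 0.338 CPM. Only 3 of the 10 genes of this list passed the filter on low levels, and they did not share a direction: Lyz2, lysozyme, was higher (9661 and 6597 CPM against 567 and 684 CPM), while Ctsc, cathepsin C, and Ctsd, cathepsin D, were lower in granule-rich cells, at log2 ratios of -1.70 and -0.86 and of -1.44 and -0.69.

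Genes of later granules and vesicles went both ways. The tertiary granule list had a median log2 ratio of -0.08 in 4T1P and 0.08 in 4T1M over 8 genes, and the sign in 4T1P turned to 0.09 under TMM scaling. Mmp9, gelatinase B, was at 630 and 566 CPM against 351 and 305 CPM, and Mmp25, a membrane-bound metalloproteinase, was at 79.1 and 114 CPM against 37.5 and 49.4 CPM. Of these 8 genes 4 were below 0 in both libraries, such as Adam8, a membrane metalloproteinase (-0.66 and -0.35), and Slc11a1, a metal transporter of phagosomes (-1.84 and -0.60), and 1 was past 2-fold lower in both. In the secretory vesicle list the medians were -0.31 and 0.15 over 8 genes. Anxa3, annexin A3, was past 2-fold higher in both libraries (2.52 and 2.37) and Fcgr3, an Fc receptor, past 2-fold lower (-1.06 and -1.06), Cd14, the lipopolysaccharide co-receptor, stood at -1.15 and -0.56, and the formyl peptide receptors were at -0.84 and 0.07 (Fpr1) and at 0.79 and 0.27 (Fpr2). The NADPH oxidase list had medians of 0.86 and 0.53, with Cybb, Cyba and the GTPase gene Rac2 (1.32 and 1.15) past 2-fold and the cytosolic subunit Ncf1 at 0.89 and 0.44.

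Surface and cytosolic genes of immature neutrophils were higher as a list, with medians of 2.28 and 2.60. Of 15 genes, 12 were past 2-fold higher in both libraries, against 8.87% of all genes, and 1 was lower. Some of the 12, such as Lta4h, Padi4 and Adpgk, lay below the level of the filter in other neutrophils of both libraries. These passed the filter only through the granule-rich cells and so had to differ. Anxa1, annexin A1, which restrains neutrophil recruitment, was the most abundant of them at 8905 and 6233 CPM against 866 and 498 CPM. Aldh2, mitochondrial aldehyde dehydrogenase, was at 874 and 571 CPM against 82.3 and 46.2 CPM. Lta4h, leukotriene A4 hydrolase, was at 212 and 110 CPM against 10.5 and 8.62 CPM. Padi4, the enzyme that citrullinates histones, was at 139 and 73.8 CPM against 28.8 and 12.2 CPM, Adpgk, ADP-dependent glucokinase, at 351 and 349 CPM against 40.2 and 27.2 CPM, and Tarm1, a receptor of activated myeloid cells, was the lower one at 50.7 and 78.3 CPM against 209 and 175 CPM. The alarmins S100a8 and S100a9, which were part of the rule for neutrophils, were higher again in granule-rich cells, at 163275 and 149458 CPM against 51945 and 45526 CPM for S100a8.

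Cebpe was one of the 15 genes highest over other neutrophils, at 117 CPM in 4T1P and 113 CPM in 4T1M against 2.29 and 4.39 CPM. It had a UMI in 10 of 18 and 20 of 46 granule-rich cells and in 0.842% and 1.52% of other neutrophils, and after thinning in 16.7% and 8.70% against 0.168% and 0.306%. Of 15 transcription factors of granulopoiesis and neutrophil activation past the filter, 10 were past 2-fold lower, against 25% of all genes. Cebpe, which passed the filter only through its level in granule-rich cells and so had to differ, was higher. Cebpb, the C/EBP factor of emergency granulopoiesis, was at 2162 and 2841 CPM against 7832 and 7194 CPM, and Hif1a, the hypoxia factor, at 133 and 282 CPM against 828 and 837 CPM. The immediate-early genes Fos (-2.77 and -1.87) and Junb (-1.71 and -1.34) were lower too, while Spi1, the gene of PU.1, was level at 0.10 and 0.04.

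Some granule-rich cells carried transcripts of the cell cycle. The summed proliferation list of 20 genes was at 3818 CPM in 4T1P (counting interval 3605 to 4039) and 3631 CPM in 4T1M (3488 to 3779), against 1149 and 1142 CPM in other neutrophils. The list reached 0.5% of the UMIs in 3 of 18 and 7 of 46 granule-rich cells, 16.7% and 15.2%, and in 0.505% and 0.488% of other neutrophils. Each of those 10 cells held Mki67 UMIs, and their Camp, Ngp and Ltf shares ran from 4.57% to 11.4%. Single cells weighed heavily, since 1 cell held 80.0% of the 35 Mki67 UMIs in 4T1P and 75.6% of the 41 Ube2c UMIs, Ube2c being a mitotic ubiquitin-conjugating enzyme. The chromatin genes Hmgb2 (1.18 and 1.09), H2afz (2.39 and 2.32) and Hmgn2 (2.88 and 3.11) rested less on single cells, with 25.9% to 28.0% of their UMIs in 1 cell in 4T1P and 14.3% to 16.5% in 4T1M. H2afz, a histone variant, had a lower quartile over the granule-rich cells of 388 and 266 CPM, against 195 and 196 CPM in the other neutrophils together.

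The 15 genes highest over other neutrophils, ranked by the smaller of the log2 ratios of the libraries, began with Camp, Ltf, Fcnb, Ngp, Orm1, Chil3, Cebpe and Serpinb1a. Fcnb encodes ficolin B, a lectin of immature myeloid cells, and was at 127 and 134 CPM against 0.457 and 0.676 CPM. It was present in 4 of 18 and 9 of 46 granule-rich cells, and 1 cell held 60.7% of its 89 UMIs in 4T1M. Orm1, the acute-phase protein orosomucoid, was at 427 and 163 CPM against 2.74 and 2.54 CPM. Ube2c, Zmpste24, a protease that processes lamin A, Lta4h, Sptbn1, a spectrin, Lrmp, Golim4, a Golgi protein, and Aldh2 completed the set, with log2 ratios from 3.41 to 4.74. Those near 0 CPM in other neutrophils passed the filter only through the granule-rich cells.

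The 10 lowest by the same ranking were Rsad2, Fgl2, Ccl6, Ccl2, Slfn5, Igfbp6, Gbp2, Hk2, Vps37b and Ccl4. Rsad2, which encodes the antiviral protein viperin, was at 12.7 and 84.3 CPM against 439 and 808 CPM. The chemokine gene Ccl4 was at 94.97 and 471 CPM against 1968 and 3291 CPM, and Hk2, hexokinase 2, at 9.50 and 19.6 CPM against 123 and 150 CPM. Slfn5 and Ccl2 had 0 UMIs in granule-rich cells of 4T1P, at least 9.82-fold and 11.7-fold lower than in other neutrophils when set against a floor of 3 UMIs over the class. Those below the level of the filter in granule-rich cells of both libraries, such as Fgl2 and Hk2, passed it only through the other neutrophils.

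In the list of genes of mature tumor neutrophils, 16 of 20 were lower in both libraries and 0 higher, against 25% and 8.87% of all genes. The medians were -2.54 in 4T1P and -1.67 in 4T1M, and 20 of 20 had a ratio below 0 in both, where 61.6% of all genes did. Il1b, interleukin-1β, was at 1003 and 2643 CPM against 10974 and 10901 CPM. Cxcl2, a neutrophil-attracting chemokine, stayed abundant at 10431 and 18888 CPM against 38186 and 49356 CPM. Cd274, the gene of PD-L1, was at 53.8 and 187 CPM against 702 and 889 CPM, and Ptgs2, cyclooxygenase 2, at 41.2 and 264 CPM against 881 and 1029 CPM. The chemokine receptor gene Cxcr2 (-0.70 and -0.67) and Hdc, histidine decarboxylase (-1.01 and -0.87), differed less. Among receptors and adhesion genes 6 of 16 were lower, against 25% of all genes, such as Csf3r, the G-CSF receptor (-2.40 and -1.94), and Ltb4r1, the leukotriene B4 receptor, was higher (1.17 and 1.24).

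Interferon-response genes were lower still, with 14 of 16 lower in both libraries, against 25% of all genes. The medians were -3.44 in 4T1P and -1.88 in 4T1M. Some of the 14, such as Gbp2, Gbp5 and Slfn5, lay below the level of the filter in granule-rich cells of both libraries. These passed the filter only through the other neutrophils and so had to differ. With the genes at 0 UMIs set at their bound the 4T1P median was -3.10, and with every cell thinned to 1000 UMIs -1.23 and -1.76. Summed over its 26 genes the list was at 408 CPM in 4T1P (341 to 485) and 1196 CPM in 4T1M (1114 to 1282) in granule-rich cells, against 3692 and 5589 CPM in other neutrophils. Isg15, a ubiquitin-like modifier, was at 69.6 and 221 CPM against 1163 and 1503 CPM. Ly6e, which encodes a surface antigen, was at 69.6 and 96.4 CPM against 69.5 and 188 CPM, a log2 ratio of 0.03 in 4T1P and -0.95 in 4T1M.

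Housekeeping lists lay nearer to 0. The ribosomal protein list had medians of 0.25 and 0.16 over 18 genes, with Rpsa (1.44 and 1.41) past 2-fold, and the cytoskeleton list 0.18 and 0.26 over 15 genes, with 0 past 2-fold and Actb at 0.27 and 0.63. Glycolysis genes had medians of -0.90 and -0.95, against -0.55 and -0.41 over all genes. Of them 7 of 16 were lower, against 25% of all genes, among them Hk2 and the glucose transporter gene Slc2a1 (-2.89 and -1.63). Hk2 passed the filter only through its level in other neutrophils and so had to differ. Pkm, pyruvate kinase, was at -0.56 and -0.53.

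**Figure D3:**
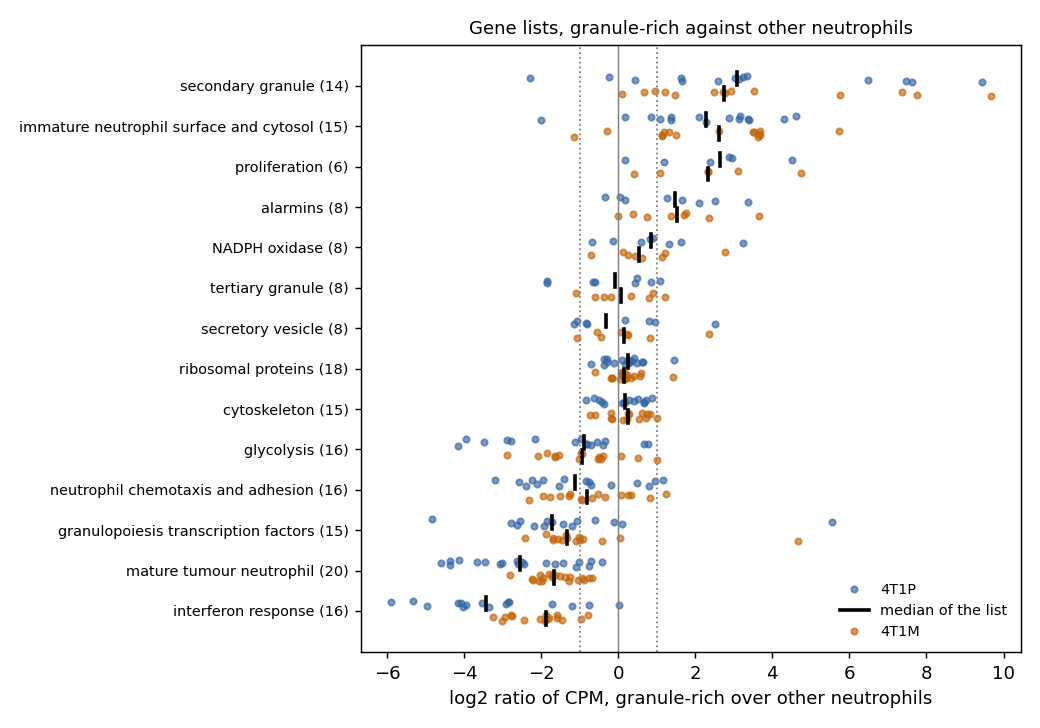
Log2 ratio of CPM of granule-rich over other neutrophils for each gene past the filter (number of genes in brackets), blue in 4T1P and orange in 4T1M, with the median of a list as a black bar and dotted lines at 2-fold. Secondary granule, immature neutrophil and proliferation lists lie to the right and the mature tumor neutrophil and interferon lists to the left, where the 4T1M medians (-1.67 and -1.88) are nearer to 0 than those of 4T1P (-2.54 and -3.44). The secondary granule list includes Camp, Ngp and Ltf, which chose the cells, and without them its medians are 2.60 and 2.49.

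Granule-rich cells differed among themselves along the granule share. In 4T1M, 16 cells lay between 1% and 3%, 28 between 3% and 10% and 2 above 10%, and in 4T1P 1, 15 and 2; these are ranges of a score and not cell types. Retnlg, a resistin-like gene of maturing neutrophils, was at 14903, 4885 and 1386 CPM in the ranges of 4T1M in this order, and at 15262, 5683 and 879 CPM in 4T1P. Mmp8 was at 1033, 387 and 0 CPM in 4T1M and at 1231, 436 and 0 CPM in 4T1P. Both genes thus lay lower at each higher range in both libraries, although the outer ranges of 4T1P rest on 1 and 2 cells.

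Other genes took the opposite order. Lyz2 was at 2552, 8137 and 11844 CPM in 4T1M and at 2133, 9727 and 11129 CPM in 4T1P, and Anxa1 at 4525, 6812 and 10458 CPM and at 6236, 8792 and 10095 CPM. Fcnb was at 0, 185 and 315 CPM and at 0, 99.0 and 293 CPM. The proliferation list was at 1519, 4236 and 12096 CPM in 4T1M and at 1641, 3034 and 8201 CPM in 4T1P. By contrast Lcn2, at 9851, 15218 and 15624 CPM and at 16411, 18638 and 19584 CPM, varied little above 3%, and the mature tumor neutrophil list was at 46713, 31839 and 3654 CPM and at 39468, 19719 and 11871 CPM.

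**Figure D4:**
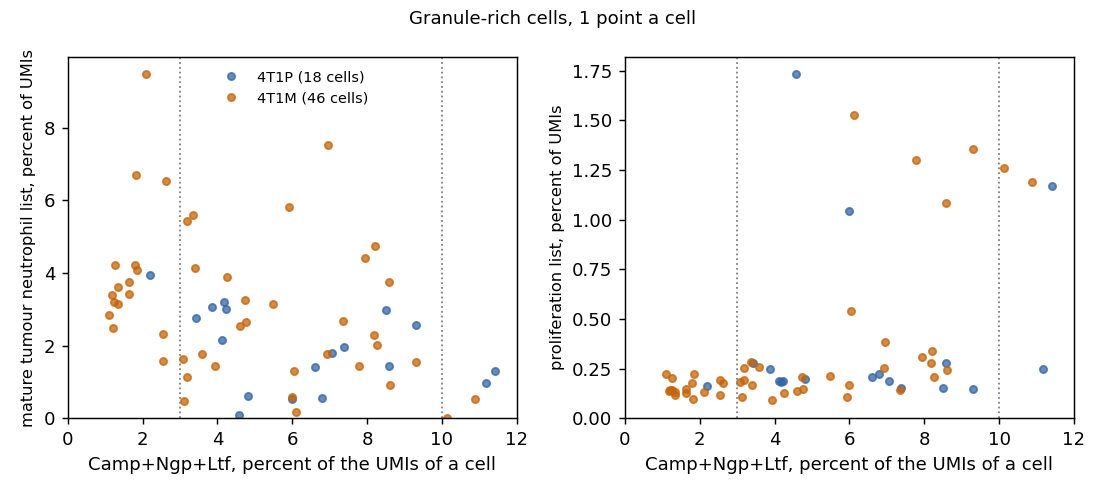
Percent of the UMIs of each granule-rich cell in the mature tumor neutrophil list (left) and the proliferation list (right) against the percent in Camp, Ngp and Ltf, blue for 4T1P (18 cells) and orange for 4T1M (46 cells), with dotted lines at 3% and 10%. The 10 cells at or above 0.5% of proliferation transcripts have granule shares of 4.57% or more, and the cells with the most mature transcripts are from 4T1M.

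Between the tumors, granule-rich cells of 4T1M held somewhat lower levels of 7 of the 11 secondary granule genes outside the rule and higher levels of interferon-response and mature neutrophil genes than those of 4T1P. Of the 1962 genes, 216 (11%) were 2-fold or more higher in 4T1M and 10 (0.51%) lower in granule-rich cells, and 14 (0.714%) and 5 (0.255%) in other neutrophils. The counts of higher and lower genes depended on depth and filter. With each cell thinned to 1000 UMIs and the rule applied again (19 and 45 cells), 390 were higher and 434 lower. Without a filter, 1877 were higher and 7477 lower. The 0.5 UMIs were added to sums of unequal size. A gene at 0 UMIs in both granule-rich sums therefore counts as 2-fold lower in these settings. How many of the lower genes were of this kind was not counted. The sums of granule-rich cells hold fewer UMIs than those of other neutrophils, whose part in these counts was not tested, and the median over all genes was 0.14 in granule-rich and -0.00 in other neutrophils.

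Secondary granule genes differed by less than 2-fold, but for Olfm4. Camp had a log2 ratio of 4T1M over 4T1P of -0.58 (counting interval -0.62 to -0.55), Ltf of -0.60 (-0.66 to -0.54), Ngp of -0.36 (-0.40 to -0.32) and Lcn2 of -0.45 (-0.50 to -0.41). Over the 14 genes of the list the median was -0.32, with 10 below 0, among them the 3 genes of the rule, against 38.5% of all genes, 0 of them 2-fold lower and 1, Olfm4, 2-fold higher (3.66, 2.43 to 5.72), and without the genes of the rule it was -0.24, with 7 of 11 below 0. The primary and tertiary granule lists had medians of 0.86 over 3 and 0.21 over 8 genes. Ly6g (-0.11, -0.28 to 0.06), Cd177 (-0.09, -0.30 to 0.12), Serpinb1a (-0.13, -0.38 to 0.13) and Cebpe (-0.06, -0.64 to 0.56) had intervals that include 0. The other neutrophils had lower levels of the same granule genes in 4T1M as well, at -0.81 for Camp, -0.88 for Ltf and -1.24 for Ngp.

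All 16 interferon-response genes past the filter had a log2 ratio above 0 in granule-rich cells, where 61.5% of all genes did. Of the 16, 12 were 2-fold or more higher, against 11% of all genes, with a median of 1.69. With Gbp5 and Slfn5, which had 0 UMIs in 4T1P, set at their bound, the median was 1.58. In other neutrophils the median of these genes was 0.63. Isg15 had a ratio of 1.64 (1.02 to 2.39), Rsad2 of 2.58 (1.30 to 4.66) and Irf7, the interferon regulatory factor, of 0.15 (-0.79 to 1.24), and Ly6e was at 0.45 (-0.25 to 1.24) in granule-rich against 1.43 in other neutrophils. The levels are low, since the 26 genes together had 129 UMIs in 17 of the 18 cells of 4T1P and 794 UMIs in 44 of the 46 cells of 4T1M, and 1 cell held 19.4% and 16.4% of them. Per cell the list ran from 0 over a median of 348 to 2051 CPM in 4T1P and from 0 over 626 to 5545 CPM in 4T1M, so that the libraries overlapped. With every cell thinned to 1000 UMIs the median ratio of the list was 0.34 and with the mean of per-cell CPM 1.37.

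Genes of mature tumor neutrophils were likewise above 0 in 20 of 20 cases, where 61.5% of all genes were, and 10 were past 2-fold, against 11% of all genes. The median was 1.16 in granule-rich and 0.35 in other neutrophils. With every cell thinned to 1000 UMIs the median was 0.77. Il1b had a ratio of 1.40 (1.22 to 1.57) in granule-rich cells and -0.01 in other neutrophils, and per cell its median was 245 CPM in 4T1P and 2194 CPM in 4T1M, with highest cells at 3252 and 9394 CPM. Ccl3, a chemokine gene, was at 1.43 (1.26 to 1.62) and Ccrl2, an atypical chemokine receptor, at 1.32 (1.05 to 1.60). The chemokine Cxcl2 was at 0.86 (0.80 to 0.91) and Nfkbia, the inhibitor of NF-κB, at 0.61 (0.49 to 0.72).

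**Figure D5:**
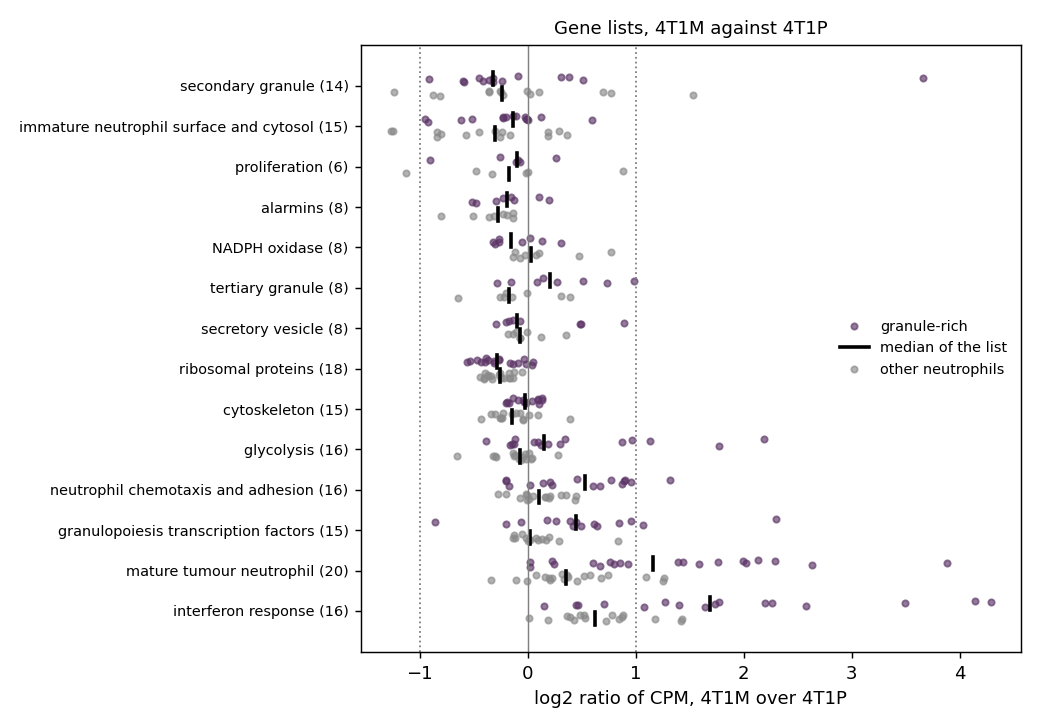
Log2 ratio of CPM of 4T1M over 4T1P for each gene past the filter (number of genes in brackets), purple in granule-rich and grey in other neutrophils, with the median of a list as a black bar and dotted lines at 2-fold. Most lists lie near 0, and the mature tumor neutrophil and interferon lists lie to the right, with medians of 1.16 and 1.69 in granule-rich and 0.35 and 0.63 in other neutrophils.

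The granule share moved together with these differences, since 16 of the 46 cells of 4T1M and 1 of the 18 cells of 4T1P lay below 3%. Within the range of 3% to 10%, with 15 and 28 cells, the interferon list was at 333 CPM in 4T1P and 931 CPM in 4T1M (log2 ratio 1.48, counting interval 1.14 to 1.84). The mature list was at 19719 and 31839 CPM there (0.69, 0.64 to 0.74). Of the genes of the rule, Camp was at -0.02 (-0.07 to 0.03) and Ngp at 0.03 (-0.01 to 0.07) in this range and Ltf at -0.31 (-0.38 to -0.24), values that the range itself constrains, since it is set on the sum of these genes, and the other secondary granule genes summed to -0.21 (-0.25 to -0.16). Retnlg had the opposite sign, from 0.55 (0.47 to 0.63) over all granule-rich cells to -0.22 (-0.31 to -0.12) in this range, and so did Chil3, from -0.32 (-0.54 to -0.10) to 0.57 (0.30 to 0.85). The outer ranges rest on few cells of 4T1P, and there the interferon list was at -0.15 (-0.71 to 0.52) between 1% and 3% and at 0.24 (-1.31 to 1.48) above 10%, and the mature list at 0.24 (0.11 to 0.38) and -1.69 (-2.11 to -1.31). Thus the interferon list was higher in 4T1M in the middle range too, while its intervals in the outer ranges include 0, and the pooled values of Retnlg and Chil3 were not those of the middle range.

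Single genes with the highest ratio among those of at least 100 CPM included Cxcl10, Il1a, Saa3 and Ifi27l2a. Cxcl10, an interferon-induced chemokine, had 0 UMIs in 4T1P and 25 in 4T1M, at least 3.96-fold higher against a floor of 3 UMIs over the class. Il1a, interleukin-1α, was at 28.5 CPM in 4T1P and 443 CPM in 4T1M, a ratio of 3.88 (3.01 to 5.10), and it was found in 3 of 18 and 28 of 46 cells. Saa3, serum amyloid A3, rested on 4 and 135 UMIs, and 1 cell held 41.5% of those in 4T1M. Ifi27l2a, an interferon-induced gene, had a ratio of 2.91 (1.92 to 4.35).

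The lowest ratios by the same rule were those of Hspa1b, Orm1, Ndufv3, Ceacam10 and Mpc2. Hspa1b, a heat shock gene that responds to tissue dissociation, was found in 3 cells of each library. Orm1 had a ratio of -1.39 (-1.77 to -1.02) and was found in 11 of 18 and 22 of 46 cells. Ceacam10 was at -0.91 (-1.28 to -0.54), Ndufv3, a respiratory chain subunit, at -0.93 (-1.43 to -0.42) and Mpc2, a subunit of the mitochondrial pyruvate carrier, at -0.87 (-1.36 to -0.37).

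Markers of other cell types were scarce in granule-rich cells. The 15 monocyte and macrophage markers summed to 279 and 378 CPM, against 722 and 819 CPM in other neutrophils, where low C1q and Apoe were part of the rule. Ly6c2, which encodes an antigen that the GR1 antibody also recognises, was the most abundant of them at 133 and 124 CPM, and in 4T1P Adgre1, Mrc1, Ms4a7 and Cx3cr1 were at 0. Cd74 and the other dendritic cell markers summed to 34.8 and 116 CPM against 401 and 457 CPM, with Flt3, Xcr1, Clec9a and Zbtb46 at 0 in both libraries. The 12 T and NK cell markers summed to 114 and 105 CPM against 41.2 and 40.9 CPM, nearly all of it Cd3d (111 and 91.9 CPM), while Cd3e, Cd3g, Trac, Trbc2 and Cd8a were at 0. B cell markers were at 0 and 4.52 CPM, tumor epithelial markers at 6.33 and 6.02 CPM, erythroid and platelet markers at 6.33 and 12.05 CPM, and eosinophil, basophil and mast cell markers at 6.33 and 7.53 CPM. The dendritic cell markers moved with the interferon list between the libraries, with Cd74 at 25.3 CPM in 4T1P and 69.3 CPM in 4T1M, and their part in that difference was not tested.

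When all neutrophils were clustered on variable genes with Camp, Ngp and Ltf left out, 61 of the 64 granule-rich cells (17 and 44) fell in 1 of 8 clusters. That cluster held 92 cells, 32 of 4T1P and 60 of 4T1M, and was led by Fcnb, Chil3, Serpinb1a, Orm1 and Aldh2. Its cells had a median of 11870 UMIs, against medians of 2088 to 8650 in the other clusters, and the part of depth was not tested. Its 31 cells under the limit had a median of 0.362% and a highest value of 0.918% of UMIs in the 3 genes. The cells nearest to the limit on either side stood at 0.783% and 1.10% in 4T1M and at 0.918% and 2.20% in 4T1P. The other 3 granule-rich cells lay in a cluster led by Retnlg and Pi16. A further 4 barcodes of each library had 1% or more of these transcripts but fell outside the limits on detected genes, mitochondrial UMIs or C1q and Apoe. Near the 3 genes on chromosome 9, 37 genes are listed between the start of Camp and the end of Ltf, and the 2 others that passed the filter, Setd2 and Ccdc12, were not 2-fold apart, with log2 ratios of -0.55 and -0.17 and of -0.47 and 0.27.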

How the data were processed

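GR1+ cells of 4T1P and 4T1M tumors were profiled with 10x Genomics droplets, 1 library per tumor type. Per the labels the authors mapped reads to mm10; Cell Ranger 4.0.0 stands in the processing notes and file headers, and another version in the study's methods. The deposited matrices hold UMI counts per gene and barcode, not normalized. Barcodes were retained at 500 to 5000 detected genes and up to 10% of UMIs from mitochondrial genes, which left more cells than the study's methods give for the same limits. UMIs were summed per class and library. Log2 ratios carry exact conditional intervals, levels exact Poisson intervals and shares Clopper-Pearson intervals (scipy 1.17.1, Python 3.11.15, pandas 2.3.3, numpy 2.4.6); these cover counting error only, since cells of 1 library are not replicates. No differential test was run. All 1962 genes with a mean of at least 50 CPM over the 4 sums were compared, and 2-fold was the size reported. The ratio and its interval were tried on simulated Poisson counts, the error that the interval assumes, without added spread between cells.

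Named genes are the 15 highest and 10 lowest by the smaller log2 ratio of the libraries (for levels of 100 CPM, the 5 highest and 5 lowest between libraries), the given markers and members of the gene lists. Some genes are not reported here by name. The members and lists were chosen with earlier results of these data known. Scrublet called 1 and 0 barcodes as doublets, too few to have worked; removing the 69 and 200 highest scores left all 18 and 46 granule-rich cells in place. Clustering used scanpy 1.11.5 and leidenalg 0.10.2 on 2000 variable genes, 25 components and 20 neighbors at resolution 0.75. TMM factors came from edgeR 4.0.16 in R 4.3.3. Positions are from GENCODE on GRCm38 (32158 of 32285 genes matched) and promoters from RefSeq. Alternatives changed the limits of the rule, the depth, the scaling and the filter.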

Additional observations from a re-analysis of the deposited data

Results flagged for a closer look

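These genes differed in sign between classes or libraries with intervals on either side of 0; none of these differences was tested, since there is 1 library per tumor type. They were looked for among the genes reported here. Between 4T1M and 4T1P, besides Retnlg below, 5 genes had a log2 ratio above 0 in granule-rich and below 0 in other neutrophils. They were Cebpb (0.39 and -0.12), Slc2a1 (0.97 and -0.29), Actb (0.13 and -0.23), Igfbp6 (1.89 and -0.27) and Cd14 (0.49 and -0.11). The opposite order was found for Chil3 (-0.32 in granule-rich and 1.54 in other neutrophils, but 0.57 in granule-rich cells of 3% to 10% granule share), Cyba (-0.32 and 0.11), Lyz2 (-0.55 and 0.27) and Ndufv3 (-0.93 and 0.29). Retnlg was lower in granule-rich than in other neutrophils in 4T1P (-0.56) and higher in 4T1M (0.55), and between the tumors it was at 0.55 in granule-rich and -0.56 in other neutrophils, but at -0.22 in granule-rich cells of 3% to 10% granule share, the sign of the other neutrophils. Olfm4 was at -2.28 for granule-rich over other neutrophils in 4T1P and at 0.68 in 4T1M, on 4 and 119 UMIs in granule-rich cells.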

How the results depend on the processing

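The shares of granule-rich cells moved by less than their intervals under every alternative run. With the limit at 2% of UMIs in the 3 genes, or at 5% mitochondrial UMIs, 16 genes were 2-fold lower in 4T1M in place of 10. Thinning to 1000 UMIs, with the rule applied again (19 and 45 cells), gave 390 higher and 434 lower genes in 4T1M. It also gave 0 lists past 2-fold between tumors in place of 3. The primary granule list was at 1.35 in 4T1P and, between tumors, dendritic markers were at -0.63 and Ccl2 at -1.24. In the sum of the 19 thinned cells of 4T1P, 1 UMI is more than 50 CPM, whereas the filter is on the mean over the 4 sums. A filter at 20 CPM gave 315 higher and 777 lower genes within libraries and 464 and 85 between tumors, in the same order a filter at 100 CPM gave 87, 319, 133 and 2, and no filter gave 3983, 1462, 1877 and 7477, with 6 lists past 2-fold between tumors. The primary list in 4T1P was then at 1.03, 1.33 and 2.79, and dendritic markers without a filter at 0.0455 and 1.57 within libraries and -1.07 between tumors. The values 2.79 and -1.07 are those of genes with 0 UMIs in both sums, and 1.57 that of 0 against 1 UMI in 4T1M. They come from the 0.5 UMIs added to sums of unequal size and are not levels. Counts of genes without a filter or after thinning can hold such genes. TMM scaling gave 204, 426, 187 and 15 genes. For 2 alternatives chosen after seeing the data, other neutrophils of at least 5000 UMIs left 114 higher genes within libraries, and the mean of per-cell CPM gave 31 genes lower in 4T1M and the primary list in 4T1P at 1.48. The primary list rests on few genes past each CPM filter and, without a filter, on the 0.5 UMIs added. Other causes were not tested. No paired analysis was possible because the result comes from no test, and no library could be left out with 1 per tumor type. Differences of genes with few UMIs in the 18 cells of 4T1P are beyond this depth.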
